A study of Mus musculus with 2 samples.

Results

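The cornified envelope genes were followed in keratinocytes (KCs) of mouse dorsal skin from a vehicle-treated control (Ctrl) and from the MC903-induced model of atopic dermatitis (AD). Members were all genes whose symbol began with Lce or Sprr, together with Flg, Flg2, Lor, Hrnr, Ivl, Rptn, Tchh and Cnfn, which gave 45 of the 33904 genes in the deposited matrices (21 Lce, 16 Sprr and 8 others). Both groups were female C57BL/6J mice, 7 weeks old, whose back hair was removed with a depilatory cream a day before treatment. Ctrl mice received ethanol and AD mice received MC903 (calcipotriol, an analogue of vitamin D) in ethanol at 4.5 nmol per application, daily for 10 days on an area of 2 cm by 2 cm, and skin was taken on day 10. There was 1 single-cell library per group, and the number of mice behind a library is not given in the sources used here. No test between the groups was therefore made, and the 95% intervals in parentheses reflect counting error alone.

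The epidermis renews from a basal layer of dividing KCs that carry keratins 5 and 14. Cells that leave this layer switch to keratins 1 and 10 and, late in their course, build a protein shell under the plasma membrane that is cross-linked by transglutaminases. Involucrin and the small proline-rich proteins (Sprr) are laid down in this shell early, loricrin is its main component in mouse skin, and the late cornified envelope (Lce) proteins are added last. Filaggrin, filaggrin 2, hornerin, repetin and trichohyalin belong to the S100 fused-type proteins. Filaggrin binds keratin filaments and is later cut into free amino acids that hold water, and loss of filaggrin is a known risk factor for AD in people.

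All but 1 of the members lie next to each other in the epidermal differentiation complex. In the GENCODE annotation of GRCm38, 44 of the 45 genes were on chromosome 3 between positions 92080271 and 93449077, a span of 1369 kb, from Lor at one end to Tchh at the other, and Cnfn was on chromosome 7 (25367620 to 25369724, minus strand). Because the 3′ ends of transcripts were read, near-identical members can share reads. Windows of 90 bases from the last 400 bases of each member's longest transcript were therefore looked up in all other genes. For 27 members no window was shared. All windows of Sprr2a1 and Sprr2a2 and 62.7% of those of Sprr2a3 were shared among these 3 genes, so their UMIs are uncertain. Of the Lce genes, Lce3c shared 36.7% of its windows, and Lce1m, the member of this family with most UMIs, shared none.

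The promoters of 42 members were found in the RefSeq table for GRCm38.p6, each from 250 bases before to 50 bases after the start of transcription. Those of Ivl (chr3:92573686-92573985, minus strand), Sprr1b (chr3:92438730-92439029, minus strand), Lor (chr3:92083093-92083392, minus strand), Flg (chr3:93273296-93273595, plus strand) and Lce1m (chr3:93019012-93019311, minus strand) are shown because these 5 genes stand for the groups whose levels are set side by side below. Capitals mark matches to TGANTCA, which AP-1 factors bind, and to TATAAA, the TATA box, on either strand.
Ivl: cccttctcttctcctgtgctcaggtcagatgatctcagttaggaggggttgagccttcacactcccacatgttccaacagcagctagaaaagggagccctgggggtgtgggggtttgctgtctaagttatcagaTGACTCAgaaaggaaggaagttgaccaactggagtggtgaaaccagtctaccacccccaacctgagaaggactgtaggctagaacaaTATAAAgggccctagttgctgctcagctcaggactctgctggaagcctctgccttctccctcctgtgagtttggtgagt
Sprr1b: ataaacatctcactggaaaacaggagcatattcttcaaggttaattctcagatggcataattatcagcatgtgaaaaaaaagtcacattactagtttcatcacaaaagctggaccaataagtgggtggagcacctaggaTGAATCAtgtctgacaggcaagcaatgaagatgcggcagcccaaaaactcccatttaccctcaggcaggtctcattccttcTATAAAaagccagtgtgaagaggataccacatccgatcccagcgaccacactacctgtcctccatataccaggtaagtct
Lor: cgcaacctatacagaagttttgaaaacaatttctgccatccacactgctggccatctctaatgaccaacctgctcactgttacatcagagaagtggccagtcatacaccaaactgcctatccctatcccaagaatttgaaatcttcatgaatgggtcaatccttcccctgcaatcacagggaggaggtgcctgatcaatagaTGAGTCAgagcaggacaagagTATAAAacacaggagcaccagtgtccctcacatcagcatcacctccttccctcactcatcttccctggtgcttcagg
Flg: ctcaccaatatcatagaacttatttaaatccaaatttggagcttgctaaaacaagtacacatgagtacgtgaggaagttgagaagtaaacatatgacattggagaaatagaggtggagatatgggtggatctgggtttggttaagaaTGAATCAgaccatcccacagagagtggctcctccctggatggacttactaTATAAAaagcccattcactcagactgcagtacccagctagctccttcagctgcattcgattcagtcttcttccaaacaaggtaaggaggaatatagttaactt
Lce1m: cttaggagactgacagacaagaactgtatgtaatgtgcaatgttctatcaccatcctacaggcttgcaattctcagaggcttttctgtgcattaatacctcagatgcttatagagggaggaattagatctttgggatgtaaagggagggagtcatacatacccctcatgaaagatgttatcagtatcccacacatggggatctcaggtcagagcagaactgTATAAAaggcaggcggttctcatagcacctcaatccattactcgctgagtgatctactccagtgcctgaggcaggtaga
Ivl, Sprr1b, Lor and Flg each had 1 match to both motifs, whereas the Lce1m window had a TATA match 29 bases before the start and no TGANTCA. Among the member promoters, TGANTCA was in 14 of 42, against 7.81% of all 32851 promoters in the table, and these were 9 of 14 Sprr promoters, 5 of the 8 promoters outside both families and 0 of 20 Lce promoters. The TATAAA motif was in 19 of 42 (10 Sprr, 4 Lce and 5 others), against 13.6% of all promoters. The other motifs searched were AACCNGTT of Grainyhead-like factors (1 of 42, against 2.09%), TTGCNNAA of C/EBP factors (5 of 42, against 10.8%), CCAAT (11 of 42, against 37.4%) and the direct repeat of AGGTCA with a spacer of 3 bases of the vitamin D receptor (0 of 42, against 0.00609%). A match describes letters only, and neighbouring members are not independent of each other.

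The Ctrl library held 12598 barcodes, of which 11399 passed the filters, and the AD library held 8778, of which 8179 passed. Cells were grouped into Leiden clusters with the members left out of the genes used for clustering, and 3 clusters carried KC markers (15 or 16 of 16 listed markers each). They gave 1322 KCs in Ctrl (11.6% of cells, median 13364 UMIs) and 407 KCs in AD (4.98%, median 9987 UMIs). A unique molecular identifier (UMI) counts 1 transcript molecule at its 3′ end, so levels are not divided by gene length. The unit is CPM, each gene's UMIs scaled so that all genes in the same cells sum to 1000000. The libraries had 35 barcodes in common, none of them a KC in both. Hair follicle matrix and inner sheath cells (847 in Ctrl, 2 in AD) formed clusters of their own and were kept apart. Other KCs of the follicle were not separated from those of the epidermis.

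KC stage was read from keratins alone, by the share f of Krt1 and Krt10 in the Krt1, Krt10, Krt5 and Krt14 UMIs of a cell. Basal KCs had f under 0.1, transitional KCs 0.1 to under 0.5 and suprabasal KCs at least 0.5, and KCs with fewer than 10 of these UMIs were called keratin-poor. Ctrl had 721 basal, 72 transitional, 408 suprabasal and 121 keratin-poor KCs. AD had 307 basal, 3 transitional, 2 suprabasal and 95 keratin-poor KCs. Suprabasal cells were thus 30.9% (28.4 to 33.4) of KCs in Ctrl and 0.491% (0.0596 to 1.76) in AD. Fewer such cells in the skin and fewer among the cells captured cannot be told apart, and the AD levels in suprabasal KCs rest on 2 cells. Krt79, a keratin of the follicle opening and sebaceous duct, was at 784 CPM in basal KCs of Ctrl. The stages may therefore include KCs of the follicle.

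The members were expressed almost wholly in KCs of the Ctrl library. KCs held 137704 of the 142275 member UMIs in Ctrl (96.8%) but 1814 of 2609 in AD (69.5%). In Ctrl, all members together took 157 CPM (149 to 165) in basal, 669 (618 to 723) in transitional, 13904 (13826 to 13982) in suprabasal and 18853 (18550 to 19160) in keratin-poor KCs. In AD they took 271 CPM (258 to 286) in basal, 5037 (4510 to 5610) in the 2 suprabasal and 78.5 (48.0 to 121) in keratin-poor KCs. By member, 25 had at least 50 UMIs in KCs and are named with their levels, 16 had 1 to 49 UMIs, and Sprr2b, Sprr2i, Sprr3 and Lce3b had none. In AD KCs, 28 members had 0 UMIs.

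**Figure D1:**
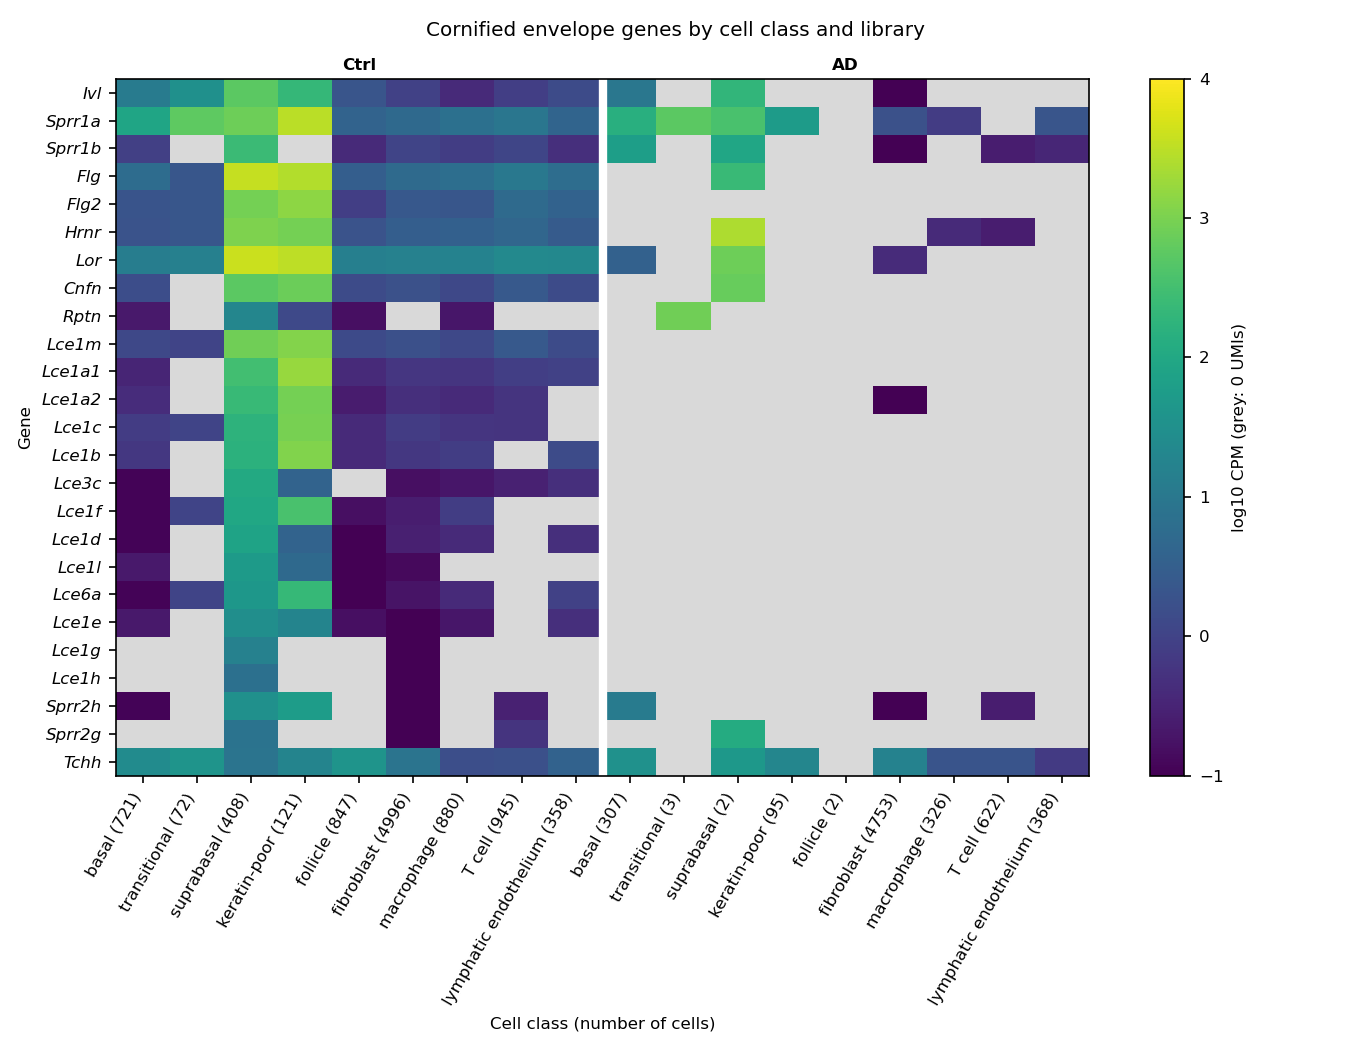
Levels of the 25 members with at least 50 UMIs in KCs (rows), as log10 CPM on a colour scale, in cell classes of the Ctrl and AD libraries (columns, with the number of cells), with grey for 0 UMIs. In Ctrl the suprabasal and keratin-poor columns are brightest and a faint, like pattern runs through all other classes, while in AD the Lce rows are grey in every KC class.

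Suprabasal against basal KCs of the Ctrl library show which members accompany the switch from keratins 5 and 14 to keratins 1 and 10. Summed over members, the level was higher in suprabasal KCs by 6.47 on the log2 scale (6.39 to 6.54), or 88.5-fold. With at least 20 UMIs in both stages together, 27 members could be compared, and 26 were at least 2-fold higher in suprabasal KCs, against 8.37% of all 13163 genes compared. Tchh was the 1 member at least 2-fold lower, against 30.4% of all genes. The median log2 ratio (1 CPM added) was 6.17 over the 27 members and -0.53 over all genes. Of these members, only Lor, Flg, Ivl, Sprr1a and Tchh had at least 20 UMIs in basal KCs alone. The others reached the minimum only with their suprabasal UMIs, so the count and the median follow in part from that minimum. No test was made, since both stages come from 1 library.

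Of 14 members compared between basal KCs and fibroblasts of Ctrl, 3 were at least 2-fold higher in basal KCs, against 17.7% of all genes. They were Sprr1a and Ivl, which encode early scaffold proteins, and Tchh. Involucrin (Ivl), a rod-like substrate of transglutaminases, was at 12.1 CPM in basal, 33.1 in transitional and 545 in suprabasal KCs. Its log2 ratio of suprabasal over basal was 5.49 (5.22 to 5.77). Sprr1a, a cross-bridging protein of the envelope that is also induced in stress, was at 88.1 CPM in basal, 572 in transitional and 799 in suprabasal KCs (3.18, 3.08 to 3.29). Of the 536 Sprr1a UMIs in transitional KCs, 280 were in 1 cell. Ivl thus went up at each step of f, whereas Sprr1a was lower in KCs with f of 0.5 to under 0.9 (258 CPM) than in transitional cells.

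Sprr1b and the Sprr2 genes were close to 0 in basal KCs of Ctrl. Sprr1b was at 0.875 CPM in basal and 259 CPM in suprabasal KCs (8 and 2254 UMIs), a log2 ratio of 8.21 (7.23 to 9.42). In fibroblasts of Ctrl, Sprr1b was at 1.05 CPM. Even among KCs with f of 0.5 to under 0.9 it reached only 7.40 CPM, and it was at 280 CPM from 0.9 up. Sprr2h had 1 UMI in basal and 281 in suprabasal KCs (8.21, 5.72 to 13.51), of which 186 were in 1 cell. Sprr2g had 0 and 70 UMIs, at least 24.5-fold higher by the floor of 3 counts over the group. The other Sprr genes had at most 36 UMIs in suprabasal KCs of Ctrl.

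Loricrin and the S100 fused-type genes gave most of the UMIs. Loricrin (Lor), the glycine-rich bulk protein of the envelope, was at 13.4 CPM in basal and 3921 CPM (3879 to 3963) in suprabasal KCs, a log2 ratio of 8.20 (7.94 to 8.47). Filaggrin (Flg) was at 5.80 and 3632 CPM (9.29, 8.90 to 9.71). At the transitional stage Lor was at 14.9 CPM (8.17 to 25.1) and Flg at 2.13 CPM (0.258 to 7.71), intervals that include their basal levels. Hornerin (Hrnr), which resembles filaggrin, was at 1.86 and 1061 CPM (9.16, 8.48 to 9.94). Filaggrin 2 (Flg2) was at 1.97 and 913 CPM (8.86, 8.20 to 9.61). Repetin (Rptn) was at 0.219 and 19.4 CPM (6.47, 4.60 to 9.53), with 88 of its 169 suprabasal UMIs in 1 cell. Cornifelin (Cnfn), an envelope component encoded outside the complex, was at 1.53 and 557 CPM (8.51, 7.76 to 9.38). Fibroblasts of Ctrl had Lor at 15.6 CPM, Flg at 5.39, Hrnr at 3.09, Flg2 at 2.43 and Cnfn at 1.73. The ratios of these 5 genes are thus over basal levels near those found outside KCs.

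Trichohyalin (Tchh), which hardens the inner root sheath of the hair, ran the other way. It was at 26.0 CPM in basal, 38.4 in transitional and 8.28 in suprabasal KCs, a log2 ratio of -1.65 (-2.05 to -1.27). A Tchh UMI was found in 19.97% of basal and 10.8% of suprabasal KCs.

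Most Lce UMIs of Ctrl KCs were in cells with f of at least 0.9, and most of the others were in keratin-poor KCs. Of the 21 genes, 20 had a UMI in Ctrl KCs, with 23732 UMIs in all, and together they were at 4.38 CPM in basal, 4.27 in transitional, 2141 in suprabasal and 6483 in keratin-poor KCs. Suprabasal KCs held 18622 of these UMIs and keratin-poor KCs 5066, of which 4917 were in 1 cell. Lce1m was at 1.48 CPM where f was 0.5 to under 0.9 and at 897 CPM from 0.9 up. Over all suprabasal KCs, Lce1m was at 827 CPM against 1.20 in basal KCs (9.43, 8.58 to 10.43) and 1.66 in fibroblasts of Ctrl. Lce1a1 followed at 306 CPM, Lce1a2 at 234, Lce1c at 170, Lce1b at 166, Lce3c at 108 and Lce1f at 93.5. These had 1 to 7 UMIs each in all 721 basal KCs. Lce1d was at 79.0 CPM, Lce1l at 53.5, Lce6a at 45.1, Lce1e at 30.01, Lce1g at 15.8 and Lce1h at 7.13, with at most 2 UMIs each in basal KCs. Lce3a was the 1 Lce gene with a UMI in basal and none in suprabasal KCs, and it had 1 UMI in all.

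**Figure D2:**
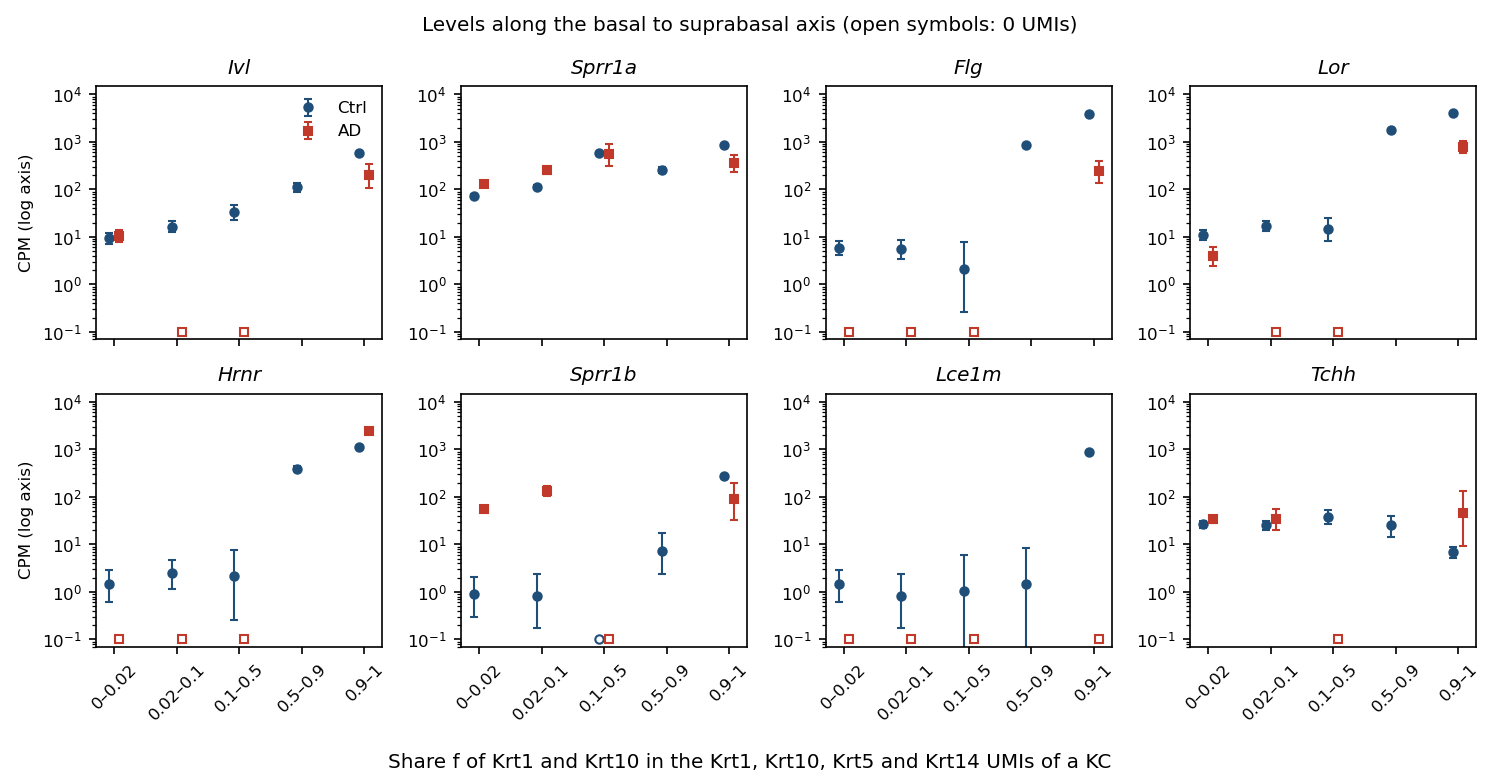
Levels (CPM, log axis) of 8 members in KCs binned by f, the share of Krt1 and Krt10 among the 4 stage keratins, for Ctrl (circles) and AD (squares), with bars for 95% counting intervals and open symbols for 0 UMIs. In Ctrl, Ivl is higher in each bin than in the one before, Lor, Flg and Hrnr are level below f of 0.5 and far higher above it, Lce1m is far higher from 0.9 alone, and the highest AD bin holds 2 cells.

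The suprabasal KCs were far from alike. They came from 2 clusters, 320 cells from a cluster led by Krt10, Krt77 and Krtdap and 88 from a cluster led by Cst6, Krt14 and Lgals7. Members were at 16402 CPM in the first and 1468 CPM in the second, where Sprr1a (1184 CPM) made up most of the total and Lor (37.8), Flg (46.1) and Lce genes (4.81) were low. Within the second cluster alone, suprabasal over basal gave a log2 ratio of 2.63 for the sum and -0.24 for Lce1m, with the Lce genes together at 4.81 CPM there and 5.37 CPM in fibroblasts. The first cluster held no basal KCs, so ratios over all suprabasal KCs compare it with basal KCs of other clusters.

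The UMIs of the late genes came from few cells. Ivl had UMIs in 253 of the 408 suprabasal Ctrl KCs (62.0%), and the 10 cells highest in Ivl held 21.2% of its UMIs. The 10 highest cells held 31.8% of the UMIs for Sprr1a, 55.1% for Flg and 69.1% for Lor. For the Lce genes summed, UMIs were in 67 cells, and the 10 highest cells held 99.5%. In 1 cell alone there were 9015 of the 18622 Lce UMIs. Levels of Lce genes in suprabasal KCs therefore describe a handful of cells, and their counting intervals are narrower than the variation between cells.

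**Figure D3:**
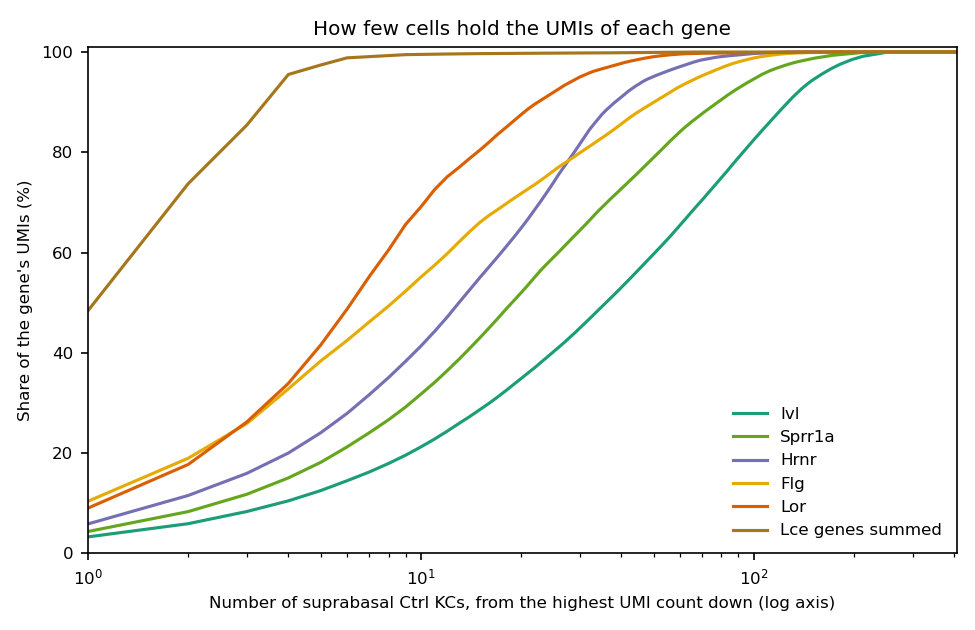
Cumulative share of a gene's UMIs (%) over the 408 suprabasal Ctrl KCs, taken from the cell with most UMIs down (log axis), for Ivl, Sprr1a, Hrnr, Flg, Lor and the Lce genes summed. The Lce curve reaches 99.5% by 10 cells, where Ivl is at 21.2%.

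Cells with many Lce UMIs lay within those of Lor, Hrnr and Cnfn, and most Lor cells lay within those of Flg, while other members were less nested. At least 5 UMIs were found for Ivl in 169 suprabasal Ctrl KCs, for Sprr1a in 129, Flg in 127, Cnfn in 90, Sprr1b in 87, Hrnr in 78, Lor in 66, Flg2 in 42 and the Lce genes in 13. All 13 Lce cells had at least 5 UMIs of Lor, of Hrnr and of Cnfn, and 12 had them of Flg. Of the 66 Lor cells, 60 were Flg cells (90.9% of the Lor cells, 47.2% of the Flg cells). Sprr1b broke this order, since 15 of its 87 cells were Lor cells and 1 was an Lce cell. Ivl was at 5 or more in 7 of the 13 Lce cells and Sprr1a in 3. These overlaps are descriptions, and deeper cells pass the limit of 5 more easily (median 34442 UMIs in the 13 Lce cells and 19359 in the 342 cells with fewer than 5 of Lor and of Lce).

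**Figure D4:**
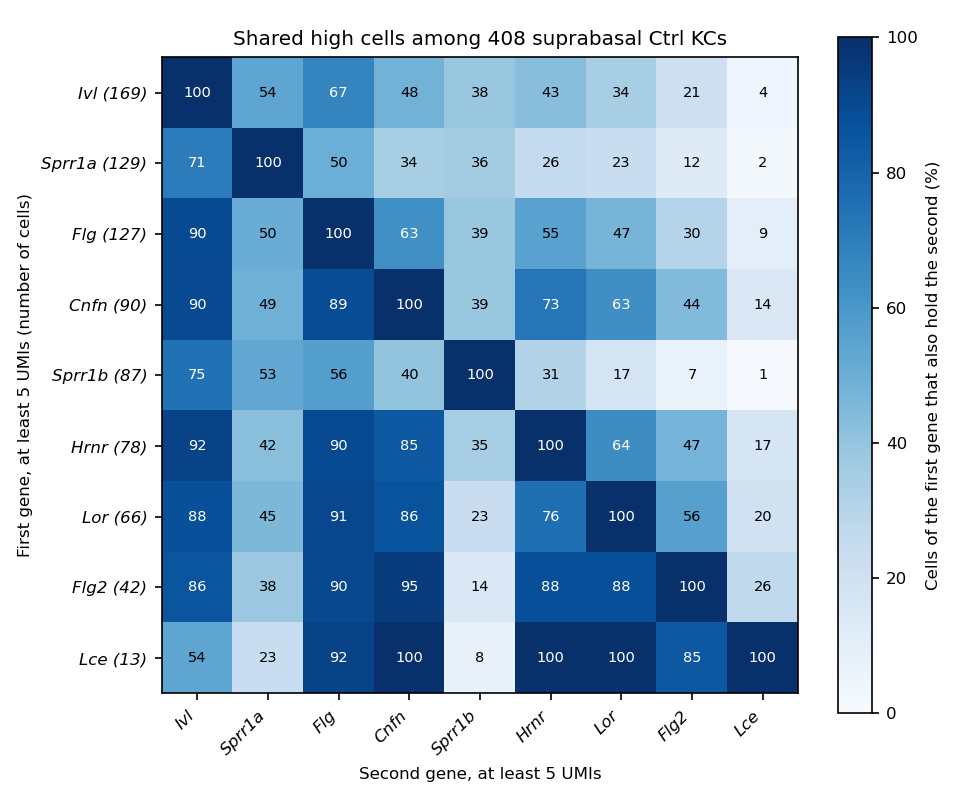
Among 408 suprabasal Ctrl KCs, the share (%) of cells with at least 5 UMIs of the gene in a row that also had at least 5 UMIs of the gene in a column, with the number of cells for each row gene. The Lce row is at 100 for Lor, Hrnr and Cnfn and at 8 for Sprr1b.

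Stage keratins were low in the cells richest in envelope transcripts. In the 13 Lce cells Krt1 was at 200 CPM and Krt10 at 7782 CPM, against 8911 and 25934 CPM in the 342 suprabasal KCs low in both Lor and Lce. Krtdap, a secreted peptide of differentiating KCs, was higher in the Lce cells (33339 against 7657 CPM). Members made up a median of 14.3% of all UMIs in the 13 cells and up to 35.8% in 1 of them, a cell that held 15493 member UMIs, 38 of Krt10 and 1 of Krt1. Cells rich in envelope transcripts also fell among the keratin-poor KCs. In Ctrl, 5 keratin-poor cells had at least 5 Lce UMIs, at a median depth of 1465 UMIs, against 34442 in the 13 suprabasal Lce cells. Whether low stage keratins or low depth put them there was not tested. A single keratin-poor Ctrl cell had 10366 member UMIs of 35875 (28.9%), with 4917 of Lce genes, 2078 of Lor and 1563 of Flg, and 1 UMI of Krt5 as its only stage keratin. It held 70.4% of the member UMIs of all 121 keratin-poor Ctrl KCs.

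Keratin-poor over suprabasal KCs of Ctrl gave 28 members with enough UMIs, 10 at least 2-fold higher (against 16.6% of all genes) and 9 lower (against 7.18%). Without that 1 cell, Lor in keratin-poor KCs was at 544 in place of 3203 CPM. Sprr1a was at 3085 CPM in the class, from 50 of its 121 cells (41.3%), with at most 187 UMIs in one. In the 114 cells low in Lor and Lce, Cst6, a cysteine protease inhibitor of the epidermis, was at 30254 CPM, Krt17 at 8549 and Krt79, a keratin of the follicle opening and sebaceous duct, at 7360. Sprr1b had 0 UMIs in all 121 keratin-poor cells, which allows up to 3.84 CPM. The keratin-poor KCs of AD had 20 member UMIs in 95 cells, 14 of them of Sprr1a, at a median depth of 1327 UMIs per cell.

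AD over Ctrl in basal KCs compares these genes between the libraries at the stage where both had many cells. With 1 library per group, MC903 treatment and other differences between the libraries cannot be told apart. The summed level was 271 CPM in 307 AD cells and 157 CPM in 721 Ctrl cells, a log2 ratio of 0.79 (0.68 to 0.90). Of 8 members with at least 20 UMIs, 3 were at least 2-fold higher in AD, against 3.43% of 12884 genes, and 2 were at least 2-fold lower, against 11.5%. The higher members were Sprr1b, Sprr2h and Sprr2a3, with 8, 1 and 6 UMIs in Ctrl. The lower members were Lor and Flg, with 19 and 0 UMIs in AD. Each reached the minimum of 20 UMIs only through the library where it was higher, so these counts follow in part from that minimum. The sum depended on few deep cells. As a mean of each cell's own CPM the log2 ratio was 0.11, and with each cell thinned to 1000 UMIs it was -0.02.

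Sprr1b showed a large gap. It was at 62.9 CPM (56.3 to 70.1) in AD and 0.875 CPM (0.378 to 1.72) in Ctrl, from 330 and 8 UMIs, a log2 ratio of 6.17 (5.17 to 7.39). Of the 330 UMIs, 306 (92.7%) were in 4 cells, with 129, 67, 62 and 48 UMIs, and 11 of 307 cells had any. In Ctrl, the 8 UMIs were in 8 cells. The 4 AD cells carried Krt14 (101 to 584 UMIs) and Krtdap (50 to 359 UMIs) with little Krt5 (0 to 9) and at most 9 UMIs of Krt1 and 3 of Krt10. They had 0 UMIs of Lor, Flg, Ivl and every Lce gene. In 2 of these, Krt6a (72 and 128 UMIs) and Krt16 (298 and 100 UMIs), the keratins of activated epidermis, were present as well, against 0 and 4 of Krt6a and 1 and 53 of Krt16 in the other two. All 4 carried Krt17 (133 to 289 UMIs), and 3 carried Krt79 (98, 485 and 36 UMIs). By keratins these cells count as basal, yet Krtdap is a gene of differentiating KCs, so the stage label is uncertain for them.

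The other members in basal KCs rested on fewer UMIs. Sprr2h had 62 UMIs in AD and 1 in Ctrl (6.75, 4.22 to 12.08), with 49, 9 and 2 in 3 of the 4 cells just described. Sprr2a3 had 27 and 6 UMIs (2.97, 1.66 to 4.54), 13 of the AD UMIs being in 1 cell, and it shares reads with Sprr2a1 and Sprr2a2. Sprr1a was at 144 CPM in AD and 88.1 in Ctrl (0.71, 0.56 to 0.86), and 51 of 307 AD cells against 95 of 721 Ctrl cells had a UMI (16.6% and 13.2%). As a mean over cells, Sprr1a was at 106 CPM in AD and 101 in Ctrl. Tchh was at 33.5 and 26.0 CPM (0.37, 0.08 to 0.65). Ivl was at 9.53 and 12.1 CPM (-0.35, -0.86 to 0.14), an interval that includes 0.

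Lor was at 3.62 CPM in AD and 13.4 in Ctrl basal KCs (-1.88, -2.66 to -1.18), from 19 and 122 UMIs. Flg had 0 and 53 UMIs and was at least 10.1-fold lower in AD by the floor of 3 counts over the group. Flg2, Hrnr and Cnfn had 0 UMIs in AD basal KCs and 18, 17 and 14 in Ctrl. In Ctrl, the levels of these genes in basal KCs were near those of other cell classes. Over 9 other cell classes of Ctrl, Lor had a median of 15.6 CPM, Flg 5.39, Hrnr 3.28, Flg2 3.70 and Cnfn 1.19, beside 13.4, 5.80, 1.86, 1.97 and 1.53 CPM in basal KCs. In the same classes of AD the medians were all 0. Free RNA in a cell suspension is known to give like levels in every class, and the AD library held 2 suprabasal cells among 407 KCs. Its part in these values was not tested. Lor in basal KCs was thus near the median of the other classes in Ctrl. In AD, basal KCs had Lor at 3.62 CPM and fibroblasts at 0.415 CPM (log2 ratio 3.13, 2.07 to 4.21). Blood endothelial cells, the highest of the other classes in AD, had it at 2.35 CPM (0.484 to 6.86) from 3 UMIs. That interval includes the level of AD basal KCs. The AD over Ctrl ratio of Lor therefore compares levels that stand differently to the other classes of their own library.

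**Figure D5:**
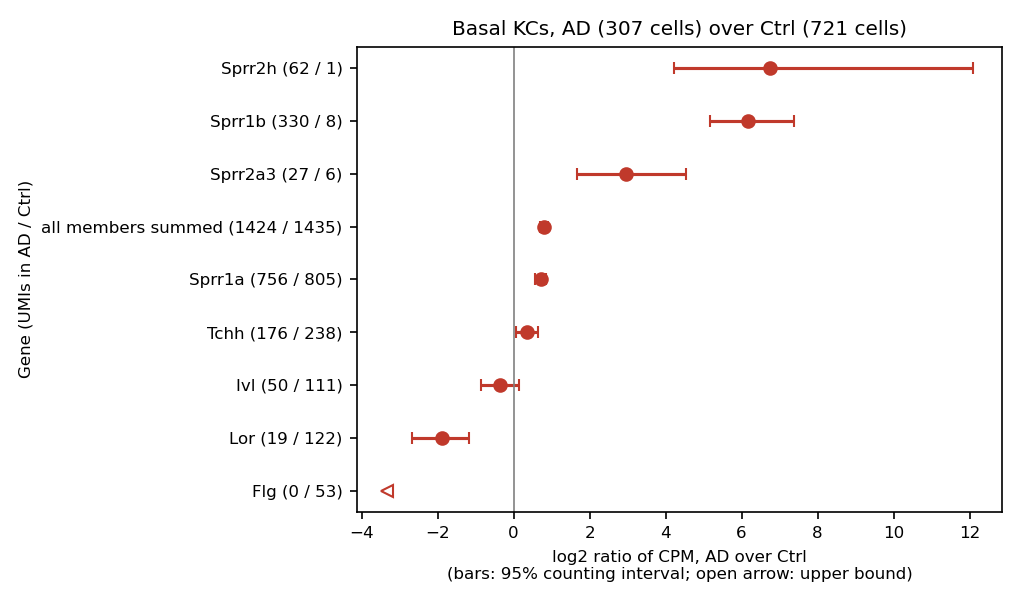
The log2 ratio of CPM in AD over Ctrl in basal KCs for the summed members and the 8 members with at least 20 UMIs, with UMIs in AD and Ctrl beside each name, bars for 95% counting intervals, and an open arrow for the upper bound of Flg, which had 0 UMIs in AD. Sprr2h, Sprr1b and Sprr2a3 lie to the right of 0 and Lor and Flg to the left, and the interval of Ivl spans 0.

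Basal KCs came from 2 clusters with unlike levels of Sprr1a in both libraries. In the cluster led by Cst6, Krt14 and Lgals7, basal KCs had Sprr1a at 212 CPM in AD (150 cells) and 152 CPM in Ctrl (358 cells). In the cluster led by Krt15, Krt17 and Krt5, they had it at 23.3 CPM in AD (157 cells) and 12.8 CPM in Ctrl (363 cells). All 330 Sprr1b UMIs of AD basal KCs were in the first cluster. Tchh was at 34.2 and 38.1 CPM (AD and Ctrl) in the first and at 32.4 and 11.9 CPM in the second. In the second cluster alone, the summed members gave a log2 ratio of AD over Ctrl of -0.05.

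Lce transcripts were not found in KCs of AD. The 407 AD KCs had 0 Lce UMIs, which allows up to 0.536 CPM (3 counts over all their UMIs), against 23732 UMIs (1214 CPM) in Ctrl KCs. All kept AD cells together had 2 Lce UMIs, and the removed AD barcodes had 7. Of the 2 suprabasal AD KCs, 1 had 51903 UMIs, Krt10 at 2191 and Krt1 at 866 UMIs, and 330 member UMIs, of which 163 were of Hrnr, 52 of Lor, 45 of Cnfn, 24 of Sprr1a, 16 of Flg, 13 of Ivl, 8 of Sprr2g and 6 of Sprr1b, and none of Lce or Flg2. The other had 14003 UMIs and 2 member UMIs, both of Tchh. It carried 119 UMIs of Krt10 with 0 of Krt1 and of Krtdap, beside 81 of Krt6a and 547 of Cst6. Its stage label is therefore uncertain. Fewer late KCs in the library and less RNA of these genes per late KC cannot be told apart from 2 cells. Suprabasal over basal KCs within AD gave a log2 ratio of 4.21 for the sum, with 5 of 9 members at least 2-fold higher (against 14.8% of all genes) and 2 lower (against 48.4%). Without the cell with most UMIs of each member the ratio was -3.77, but only 1 UMI, of Tchh, was then left in suprabasal KCs. In 27 members with enough UMIs, AD over Ctrl in suprabasal KCs gave 23 at least 2-fold lower, against 44.0% of all 10856 genes, and 3 higher, against 13.3%. The 2 AD cells held 65906 UMIs together, so members with 0 UMIs there were called lower by their Ctrl level alone. By the floor of 3 counts over the group, Lce1d was at least 1.74-fold and Lce1l at least 1.17-fold lower. Lce1h (62 UMIs in Ctrl) has no such bound. In the 3 transitional AD KCs, all 38 member UMIs were in 1 cell, 23 of Rptn and 15 of Sprr1a, and of 4 members compared with Ctrl 1 was at least 2-fold higher (against 12.7% of all genes) and 2 were lower (against 41.8%).

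Outside KCs, member UMIs were few and spread thinly in Ctrl. Fibroblasts of Ctrl had 49.1 CPM of members (47.1 to 51.2), T cells 62.9, macrophages 45.1 and follicle cells 70.2. A Lor UMI was in 12.8% of Ctrl fibroblasts, at a median of 8236.5 UMIs per cell, and in 15.5% of basal KCs, at 11560. With cells thinned to 1000 UMIs the shares were 1.87% and 1.53%, and 16.3% in suprabasal KCs. Lce genes were at 5.37 CPM in fibroblasts and 4.38 CPM in basal KCs. Of 14 members with enough UMIs, only Sprr1a, Ivl and Tchh were at least 2-fold higher in basal KCs than in fibroblasts of Ctrl, against 17.7% of all genes, and none was lower, against 18.1%. The other 11 members compared, Lor, Flg, Flg2, Hrnr, Cnfn, Sprr1b and 5 Lce genes, were within 2-fold of fibroblasts, and the remaining members had too few UMIs to compare. In AD, fibroblasts had 18.9 CPM of members, of which Tchh was 16.4, and 6 of 7 members were at least 2-fold higher in basal KCs (against 17.0% of all genes) and none was lower (against 18.4%).

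Tchh was the member with levels of its own outside the KCs. Among fibroblasts it was at 16.4 CPM in AD, with a UMI in 7.13% of cells and 72 of its 594 UMIs in 1 cell, and at 8.30 CPM in Ctrl, with a UMI in 5.28%. Within Ctrl fibroblasts it reached 35.3 CPM in a cluster led by Vcan, Wif1 and Hhip (731 cells, 17.5% with a UMI), whereas in the largest fibroblast cluster it was at 6.59 CPM. In Ctrl follicle cells, 375 of the 430 UMIs of 1 cluster were in 1 cell. In Ctrl Schwann cells, 235 of 243 UMIs were in 1 cell, so the class level of 323 CPM describes that cell.

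Other genes of the pathway in Ctrl showed the same step from basal to suprabasal KCs, with the stage keratins left out. Of all 13163 genes compared, 8.37% were at least 2-fold higher in suprabasal KCs and 30.4% at least 2-fold lower. Of 8 early differentiation genes, 8 were at least 2-fold higher in suprabasal KCs (median log2 ratio 4.97), among them Krtdap (10191 against 136 CPM) and corneodesmosin, Cdsn (335 against 1.53). Of 8 scaffold and cross-linking genes, 7 were higher (2.20), with transglutaminase 1, Tgm1, at 69.2 against 2.63 CPM, while Tgm3 (14.3 against 7.22) was short of 2-fold. Of 9 filaggrin-processing genes, 6 were higher (3.76), with the protease Asprv1 at 1674 against 11.8 CPM and Casp14 at 612 against 19.5 CPM. Of 10 differentiation transcription factors, 7 were higher and Trp63, a regulator of basal cells, was lower (118 against 391.8 CPM). Of 7 activation genes, 3 were higher and 2 lower. All 5 basal genes were lower, with Krt15 at 211 against 1868 CPM.

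In basal KCs of AD over Ctrl these lists, here with the stage keratins kept in, moved apart. Of all 12884 genes compared, 3.43% were at least 2-fold higher in AD and 11.5% at least 2-fold lower. Of 6 activation and barrier stress genes, 4 were at least 2-fold higher in AD (median log2 ratio 2.12, against -0.19 over all genes), namely Slpi (151 against 6.46 CPM), Krt16 (131 against 10.3), Krt6a (317 against 62.8) and S100a9 (5.72 against 0.766), and S100a8 was lower (5.34 against 12.8). Of the 685 Krt16 UMIs in AD basal KCs, 298, 100, 53 and 1 were in the 4 cells with most Sprr1b, whose stage is uncertain. Of 10 early differentiation genes, 2 were higher, Krtdap (322 against 136 CPM, with 359, 137, 120 and 50 of its 1689 AD UMIs in those same 4 cells) and Cdsn. Another 4 were lower, among them Dsg1a, a desmosomal cadherin (7.05 against 100.1 CPM). Krt1 (5.91 against 31.8 CPM) and Krt10 (21.3 against 81.5 CPM) were also among the lower genes, and both were used to set the stage. Of 7 scaffold and cross-linking genes, 1 was higher, Tgm1 (10.1 against 2.63 CPM), and 3 were lower, with Tgm3 at 0.763 against 7.22. Of 9 filaggrin-processing genes, 1 was higher, Spink5 (33.7 against 13.8 CPM), and 3 were lower, with Casp14 at 1.52 against 19.5. None of the 10 transcription factors passed 2-fold in either direction, and 2 of 7 basal genes were lower, Krt5 (1303 against 2847 CPM) and Krt15 (826 against 1868). Krt5 was also used to set the stage. These lists were chosen with earlier results of these data known.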

How the data were processed

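Dorsal skin cells were profiled with the 10x Genomics 3′ v3.1 chemistry, 1 library per group. The authors aligned reads to mm10 and counted UMIs with Cell Ranger, and they deposited raw UMI counts per gene and barcode. The version is 5.0.0 per the file headers, 6.0.0 in the design text and 3.1.0 in the processing notes, and Seurat is given as 4.3.0 and 5.0.

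Barcodes under 200 or over 6000 detected genes, or over 10% mitochondrial UMIs, were removed. Counts were normalized to 10000 per cell and clustered (scanpy 1.11.5, 2000 variable genes without the members, 30 components, 20 neighbours, Leiden resolution 1.0), and clusters were named from marker lists. Scrublet's automatic threshold called 0 AD cells, so that call did not work. The Ctrl threshold marked 395 Ctrl (3.47%) and 194 AD cells (2.37%), which stayed in unless stated.

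CPM was computed per class, with exact Poisson intervals for levels and conditional binomial intervals for ratios. A gene was compared where both classes together had at least 20 UMIs, and past 2-fold meant a log2 ratio of at least 1 after adding 1 CPM. On simulated counts for suprabasal over basal KCs of Ctrl (14423 genes), 95% of 200 genes changed by log2 2 were called, and 0.0351% of unchanged genes. These counts had Poisson error only, with no variation between cells. The rates therefore do not hold for genes whose UMIs are in few cells, as for the Lce genes and for Sprr1b in AD. With 1 library per group no p-value was computed. Members with at least 50 UMIs in KCs are named with their levels. The members, gene lists and alternatives were chosen with earlier results of these data known. Protein lengths and identities were not analysed here. Python 3.11.15, numpy 2.4.6 and scipy 1.17.1 were used, and coordinates are of GRCm38 (mm10).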

Additional observations from a re-analysis of the deposited data

Results flagged for a closer look

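The AD over Ctrl ratio pointed one way in basal and the other in suprabasal KCs for 3 values, and the difference was not tested, since AD had 2 suprabasal KCs. For all members summed, the log2 ratio was 0.79 in basal and -1.46 in suprabasal KCs. For Sprr1b it was 6.17 in basal and -1.51 in suprabasal KCs, and for Sprr1a 0.71 and -1.13.

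Among barcodes removed by the filters, 4 Sprr genes were at a higher level in AD than in Ctrl. Sprr2a3, which shares reads with Sprr2a1 and Sprr2a2, was at 15.5 CPM in the 599 removed AD barcodes and 0.250 CPM in the 1199 removed Ctrl barcodes. Sprr2f was at 4.70 and 0.2001 CPM, Sprr2h at 4.77 and 0.350 CPM, and Sprr1a at 85.4 and 43.7 CPM, whereas Sprr1b was at 20.8 CPM (18.5 to 23.3) in AD and 19.96 CPM (18.1 to 22.0) in Ctrl. Most of the AD member UMIs among removed barcodes were in the 229 barcodes with over 6000 genes (2360 member UMIs, of which 1220 were of Sprr1a and 297 of Sprr1b). In Ctrl the barcodes with over 6000 genes held 7090 member UMIs, 757 of Sprr1a and 323 of Sprr1b. The 229 AD barcodes held 7 Lce UMIs, and 110 of them had at least 10 UMIs of the stage keratins. None of these 229 was suprabasal by keratins, against 26 of the 396 such barcodes in Ctrl.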

How the results depend on the processing

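No paired analysis was possible because each group had 1 library, so that no spread between pairs could be had, and leaving out a replicate was not possible for the same reason. The values as reported were log2 ratios of summed members of 6.47 (suprabasal over basal, Ctrl), 4.21 (the same, AD), -1.46 (AD over Ctrl, suprabasal), 0.79 (basal) and 1.04 (transitional), 27 and 5 members past 2-fold (suprabasal over basal in Ctrl; AD over Ctrl in basal KCs), and 49.1 CPM in Ctrl fibroblasts. Suprabasal over basal in Ctrl was 6.55 with suprabasal from f of 0.9, 6.67 with basal under 0.02 and 6.55 with keratins and members left out of the total. With at least 50 keratin UMIs per cell, the ratios were 6.37, 3.91, -0.58, 1.88 and 1.86, with 14 members. With all deposited barcodes, AD over Ctrl in basal KCs was 1.03. As means over cells, the Ctrl, basal and transitional ratios were 5.77, 0.11 and 0.41. Thinned to 1000 UMIs, the ratios were 5.58, 4.65, -0.95, -0.017 and 0.14, with 16 and 0 members and 58.2 CPM. With KCs taken as cells with at least 1% of UMIs from the stage keratins and none of Ptprc, Pdgfra or Pecam1, the ratios were 6.88, 2.92, -0.25, 3.70 and 5.76, with 12 members in suprabasal over basal KCs of Ctrl. Leiden resolution 2.0 gave 6.63 in Ctrl and 0.97 in basal KCs. Centring on the median gene gave 7.00, 5.10, -0.91, 0.98 and 1.53. Past 2-fold in basal KCs were 9 members with at least 5 UMIs, 9 with no minimum and 2 with 10 CPM added. Alternatives chosen after seeing the data followed. Staging by Krtdap, Sbsn, Calm4, Dsg1a and Dsc1 gave 7.62, 4.57, -1.88, 1.16 and 0.37. Counting follicle clusters as KCs gave 6.92 in Ctrl, 1.25 in basal KCs with 9 members, and 2.43 in transitional KCs. Without the cell with most UMIs of each member, the values were 6.37, -3.77, -9.59 and 0.54 for the first 4 ratios, where -3.77 and -9.59 rest on 1 AD UMI of Tchh. In the KC cluster led by Cst6 alone, they were 2.63 (5 members), -1.45 and -3.36, and Lce1m was at -0.24. In the cluster led by Krt15 alone, AD over Ctrl in basal KCs was -0.047 with 3 members. The cause of these shifts was not tested. The AD values rest on 407 KCs, of which 2 were suprabasal.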
